A study of Mus musculus with 17 samples.

Results

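The genes described here are 6 markers of hypothalamic neurons, Hcrt, Pmch, Oxt, Avp, Otp and Agrp, among the 20328 genes listed in the RNA-seq table of a mouse study of Parkinson's disease (PD). They were selected by symbol with their read counts in the 5 RNA-seq libraries already known, so their levels are given as a description and without a test. All 6 were listed, with at least 1 read in every library, and 5 of the 6 passed the filter on low counts, Agrp being the exception. Adult female ICR mice, 8 weeks old at the time of surgery, received a unilateral injection into the substantia nigra of 6-hydroxydopamine (6-OHDA), a toxin of catecholamine neurons, at 10 µg/µl. The study followed what the heparan sulfate enzyme NDST3 does in this model. The sham group (2 RNA-seq libraries) carried no 6-OHDA lesion. The 6-OHDA-induced PD model (1 library) carried the lesion and received saline in place of the vector. The NDST3-treated PD model (2 libraries) carried the same lesion and was given 2 µl of NDST3 vector into the substantia nigra 5 days later. The study made an adeno-associated virus of serotype 9 carrying human NDST3, and a lentivirus carrying NDST3. In both, NDST3 is driven by the CMV promoter, which is active in many cell types. The sequencing methods do not name which of them was injected. The labels name the tissue only as brain. The study describes an expression comparison of control and lesioned mice as one of the substantia nigra, without stating that it rests on these libraries. Whether each library came from a separate mouse was not given in the sources used here.

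Hypothalamic neurons release peptides that govern arousal, feeding, water balance and social behaviour, and each peptide is made by a small and spatially confined cell group. Hcrt encodes the precursor of the orexins (hypocretins), which sustain wakefulness, and Pmch encodes the precursor of melanin-concentrating hormone, and their neurons lie intermingled but distinct in the lateral hypothalamus. Oxt and Avp encode oxytocin and vasopressin, the hormones of magnocellular neurons of the paraventricular and supraoptic nuclei. Otp is a homeodomain transcription factor needed for the development of several of these neuron types and is also present in some cell groups outside the hypothalamus, and Agrp is a feeding-promoting peptide of the arcuate nucleus that blocks melanocortin receptors.

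In the single 6-OHDA library, Hcrt and Pmch stood far above all 4 other libraries, Oxt and Avp stood above them by a smaller factor, and Otp and Agrp stood below them. The other peptide genes of the hypothalamus did not share one direction, and among the receptors of these peptides Hcrtr1, Hcrtr2, Mchr1 and Mc4r had lower levels after the lesion than in sham. The 6-OHDA group has 1 RNA-seq library, so nothing measures how far these levels vary between lesioned mice. In bulk tissue, a change in the number of cells of a type and a change in RNA per cell cannot be told apart. Summed levels of markers of other brain regions also differed between libraries, including libraries of the same group. Whether the tissue taken differed between libraries was not tested.

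The genes lie at separate places in the genome apart from a neighbouring pair. In the RefSeq annotation of GRCm38, Hcrt (NCBI Gene 15171) covers chr11:100761693-100762931 on the minus strand and Pmch (110312) covers chr10:88091072-88092374 on the plus strand. Oxt (18429) at chr2:130574519-130577054 and Avp (11998) at chr2:130580620-130582588 are 3566 bases apart and face each other on opposite strands. Otp (18420) lies at chr13:94875636-94885125 on the plus strand and Agrp (11604) at chr8:105566695-105579845 on the minus strand. Windows of 250 bases before a transcript start were available for 5 of the 6 genes from RefSeq (GRCm38.p6), and those of Hcrt, Pmch, Avp and Otp are shown because these genes differ in direction in the 6-OHDA library. The Oxt window lies before the start of the curated Oxt transcript and ends at base 130576168, inside the gene span given above, because a predicted transcript starts further upstream. It was searched for motifs and is not shown. Each is written 5′ to 3′ on the strand of its gene, and capitals mark matches to ATAAA (searched on the gene strand, a part of many TATA boxes), to TAAT or its complement ATTA (the core recognised by homeodomain factors), and to CACGTG (an E-box). TGACC or GGTCA, a core of nuclear receptor sites, was searched on both strands too.

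Hcrt, chr11:100762932-100763181, minus strand: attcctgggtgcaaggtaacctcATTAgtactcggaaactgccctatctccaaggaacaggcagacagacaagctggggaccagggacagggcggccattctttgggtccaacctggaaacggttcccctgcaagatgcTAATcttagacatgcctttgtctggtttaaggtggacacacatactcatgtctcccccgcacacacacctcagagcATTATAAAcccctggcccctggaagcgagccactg
Pmch, chr10:88090822-88091071, plus strand: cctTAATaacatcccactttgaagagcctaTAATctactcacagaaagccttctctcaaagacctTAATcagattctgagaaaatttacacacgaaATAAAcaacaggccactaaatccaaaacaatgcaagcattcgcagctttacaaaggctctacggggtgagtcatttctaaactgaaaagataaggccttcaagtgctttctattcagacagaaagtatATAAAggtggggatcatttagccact
Avp, chr2:130582589-130582838, minus strand: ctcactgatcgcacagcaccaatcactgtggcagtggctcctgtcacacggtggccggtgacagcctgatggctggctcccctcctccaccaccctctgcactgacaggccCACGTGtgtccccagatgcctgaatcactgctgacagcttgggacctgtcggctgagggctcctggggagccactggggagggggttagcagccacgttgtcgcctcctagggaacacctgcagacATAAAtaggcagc
Otp, chr13:94875386-94875635, plus strand: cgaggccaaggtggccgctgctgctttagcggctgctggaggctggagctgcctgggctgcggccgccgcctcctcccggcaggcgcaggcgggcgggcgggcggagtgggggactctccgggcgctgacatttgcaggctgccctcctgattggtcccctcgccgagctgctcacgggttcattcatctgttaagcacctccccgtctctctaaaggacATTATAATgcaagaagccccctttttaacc

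ATAAA lay within the last 40 bases of the windows of Hcrt, Pmch, Avp and, before its curated transcript, Oxt, but not of Otp, against 5.5% of 32851 mouse promoter windows. Anywhere in the window it was found in 24% of promoters. Within the last 40 bases the match began 32 bases before the start in Hcrt, 26 in Pmch and Oxt, and 13 in Avp. TAAT or ATTA was present in 4 of the 5 windows, all but that of Avp, and in 54.9% of all promoters. The match of ATTA in Hcrt at 35 bases before the start overlaps the ATAAA, and that in Oxt overlaps a GGTCA. The Oxt window held 5 such nuclear receptor cores, a motif present in 35.2% of promoters and in none of the other 4 windows. CACGTG was found in the Avp window only among the 5, and in 6.02% of promoters. These matches describe letters in a window and were not tested for binding.

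Hcrt, the orexin precursor, had 19 and 73 reads in sham, 3024 in 6-OHDA, and 44 and 2 in the NDST3 libraries. In TPM, which is scaled for transcript length and depth and so allows levels of different genes to be compared, this was 1.53 and 4.40, 213.6, and 2.96 and 0.138. The 6-OHDA library stood alone, and the sham and NDST3 libraries overlapped each other. In that library Hcrt was at place 584 of the 20328 genes by TPM. In CPM, the count scaled to library size and here also by edgeR's TMM factors, the log2 ratio of group means was 6.36 for 6-OHDA against sham, -7.24 for NDST3-treated against 6-OHDA, and -0.88 for NDST3-treated against sham. The first and second of these share the 6-OHDA library. The first was 5.79 without sham 1 and 7.31 without sham 2, and the second was -10.77 without NDST3 library 1 and -6.31 without NDST3 library 2. The last rests on low counts, since the 95% exact Poisson interval of the 2 reads is 0.242 to 7.22 and that of the 44 reads is 32.0 to 59.1, intervals that cover counting error only. The NDST3 libraries differed from each other in Hcrt by more than counting error, by 22.06-fold in CPM, and without the lower of them the log2 ratio to sham turned to 0.052.

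Pmch, the precursor of melanin-concentrating hormone, had 25 and 274 reads in sham, 5185 in 6-OHDA, and 83 and 89 in the NDST3 libraries. The TPM values were 1.57 and 12.9, 286.1, and 4.35 and 4.76. The 6-OHDA library was again the highest, at place 425 by TPM, and the NDST3 libraries lay between the 2 sham libraries. The log2 ratios of mean CPM were 5.49 for 6-OHDA against sham, -6.12 for NDST3-treated against 6-OHDA and -0.63 for NDST3-treated against sham. The first was 4.66 without sham 1 and 7.69 without sham 2, and the last was -1.46 without sham 1 and turned to 1.57 without sham 2. On the log2(CPM + 0.5) scale the sham libraries differed by 2.18, a gap exceeded by 27 of the 19300 genes tested. Pmch shares bases with Parpbp, a gene of DNA repair on the opposite strand, and whether strand was used in counting is not given in the sources used here. Parpbp had 40 and 33 reads in sham, 111 in 6-OHDA, and 35 and 44 in the NDST3 libraries, far fewer than Pmch in the 6-OHDA library and in the same range as Pmch in sham 1.

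**Figure D1:**
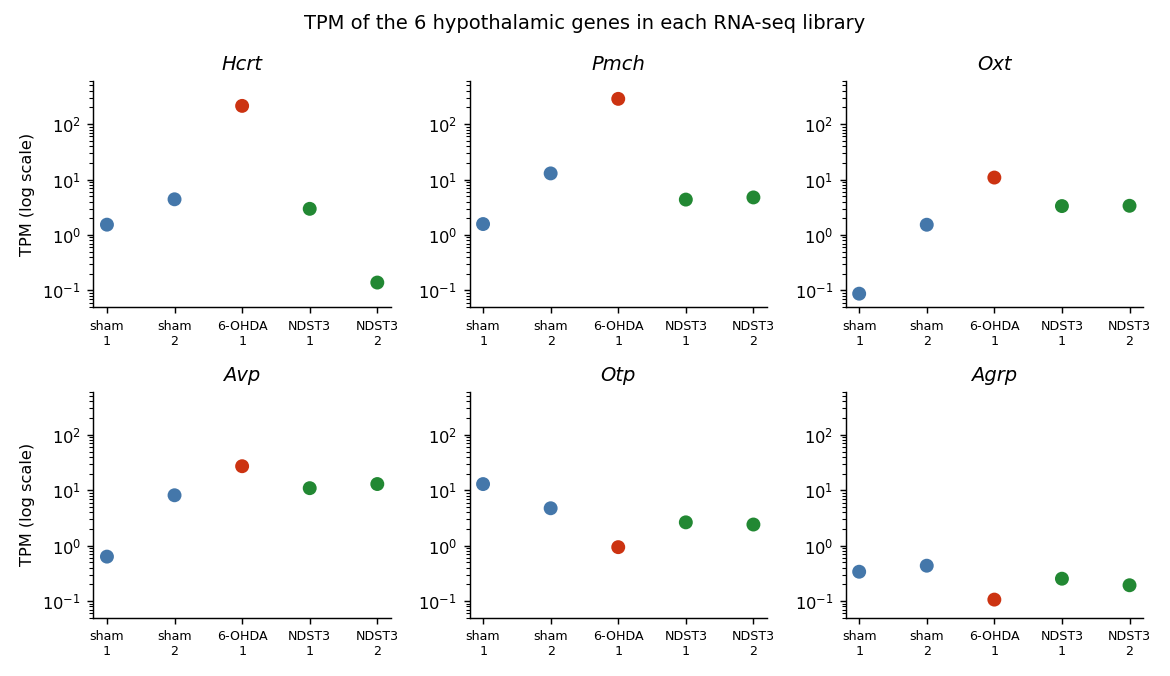
TPM (log axis) of each gene in the 5 RNA-seq libraries, one point per library, coloured by group (blue sham, red 6-OHDA, green 6-OHDA+NDST3). The 6-OHDA point is the highest for Hcrt (213.6), Pmch (286.1), Oxt and Avp, and the lowest for Otp and Agrp.

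Hcrt and Pmch were both highest by far in the 6-OHDA library and were less alike within the other groups. In CPM the sham libraries differed 2.87-fold in Hcrt and 8.18-fold in Pmch, and the NDST3 libraries 22.06-fold and 1.07-fold. Per length, Pmch was 1.03 times Hcrt in sham 1, 2.93 times in sham 2, 1.34 times in the 6-OHDA library and 1.47 times in NDST3 library 1. NDST3 library 2 departed from these ratios, with 34.4 times, where Hcrt rests on 2 reads. Over the 5 libraries, log2(CPM + 0.5) spanned 6.79 for Hcrt and 6.68 for Pmch, and only 7 and 8 of the 19300 genes tested had a wider range. After centring each gene on its own mean, the root mean square difference between Hcrt and Pmch was 0.62 on the log2 scale. Outside the 6, the gene nearest to each was Cxcl13, a chemokine, at 0.95 from Hcrt and 0.88 from Pmch, out of 15519 genes compared. Cxcl13 had 0.679 and 0.782 CPM in sham, 37.9 in 6-OHDA, and 1.39 and 1.83 in the NDST3 libraries. Tagln, a smooth muscle actin-binding protein, and the imprinted RNA H19 came next for both. All 5 profiles share the same libraries and are led by the single 6-OHDA library. Neighbouring genes were read for comparison, in the order sham 1, sham 2, 6-OHDA, NDST3 1 and NDST3 2. Beside Hcrt, Kcnh4, a potassium channel, had 30, 63, 41, 23 and 40 reads and Ghdc had 617, 912, 1008, 888 and 807. Beside Pmch, Igf1, a growth factor gene 154025 bases away, had 1073, 1230, 3941, 1063 and 2161 reads, and Nup37, a nuclear pore gene, had 131, 149, 251, 175 and 195. The 2 neighbours of Pmch and Ghdc were highest in the 6-OHDA library, by far smaller factors than Hcrt and Pmch, and Kcnh4 was not.

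Oxt, the oxytocin precursor, was lower in level than Hcrt or Pmch in the 6-OHDA library. It had 4 and 26 reads in sham, 146 in 6-OHDA, and 49 in each NDST3 library. In TPM this was 0.0871 and 1.53, 10.9, and 3.32 and 3.36. The 3 lesioned libraries lay above both sham libraries without overlap, with the 6-OHDA library highest. The log2 ratio of mean CPM was 3.64 for 6-OHDA against sham, -1.78 for NDST3-treated against 6-OHDA and 1.86 for NDST3-treated against sham. With 4 and 26 reads in sham, the choice of sham library moved these values, the ratio of 6-OHDA to sham being 2.91 without sham 1 and 5.19 without sham 2, and that of NDST3-treated to sham 1.13 and 3.40.

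Avp, the vasopressin precursor, had 9 and 141 reads in sham, 403 in 6-OHDA, and 170 and 196 in the NDST3 libraries. Its TPM was 0.634 and 8.12, 27.2, and 10.9 and 12.9. As for Oxt, the lesioned libraries lay above both sham libraries with 6-OHDA highest, and sham 1 was far below the rest. The log2 ratios of mean CPM were 2.82, -1.35 and 1.47 in the same order of contrasts, and the ratios to sham were 1.93 and 0.59 without sham 1 and 5.48 and 4.13 without sham 2. The sham libraries differed by 1.91 on the log2(CPM + 0.5) scale, and 40 of 19300 genes had a larger gap, whereas the gap between the NDST3 libraries (0.17) was exceeded by 49.2% of genes. By TPM, Avp was the more abundant of the pair in every library, at 7.28, 5.31, 2.5, 3.28 and 3.85 times Oxt. The first of these, in sham 1, rests on 9 reads of Avp and 4 of Oxt, at 0.175 and 0.0777 CPM. Oxt had a TPM of 0.0871 there, close to its CPM, but 1.53 TPM beside 0.377 CPM in sham 2. The ratio in sham 1 is therefore not on the scale of the others. The root mean square difference of the centred profiles of Avp and Oxt was 0.49. The genes nearest to Oxt were Kif11 (0.13), Igfbpl1 and Tpx2, and those nearest to Avp were Rrm2 (0.52), Igfbpl1 and Ptx3. Kif11, Tpx2 and Rrm2 act in cell division. None of these 5 genes was among the 3 nearest when 2 rather than 0.5 was added to CPM, so the nearest genes of this pair depend on that choice.

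Otp, the homeodomain regulator, ran the other way. It had 730 and 361 reads in sham, 62 in 6-OHDA, and 177 and 157 in the NDST3 libraries. In TPM these were 12.9 and 4.73, 0.939, and 2.63 and 2.41. The 3 groups did not overlap, with sham highest and 6-OHDA lowest, and sham 1 was well above sham 2. The log2 ratios of mean CPM were -3.01 for 6-OHDA against sham, 1.22 for NDST3-treated against 6-OHDA and -1.79 for NDST3-treated against sham. The ratios to sham were -2.12 and -0.90 without sham 1 and -3.56 and -2.34 without sham 2. The 3 genes nearest to Otp were Slc18a3, the vesicular acetylcholine transporter (0.27), Slc5a7, the choline transporter (0.31), and Slc5a5 (0.36), under either added value. Slc18a3 had 15.3 and 5.07 CPM in sham, 1.78 in 6-OHDA, and 4.97 and 4.26 in the NDST3 libraries. The centred profile of Otp lay 3.17 from that of Hcrt and 1.85 from that of Oxt.

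Agrp was near the floor of detection, with 6 and 10 reads in sham, 2 in 6-OHDA, and 6 and 5 in the NDST3 libraries. The 6-OHDA count was the lowest, but its exact Poisson interval of 0.242 to 7.22 reads overlapped those of all 4 other libraries. Its log2 ratio of mean CPM, -1.75 for 6-OHDA against sham, therefore rests on single reads. The TPM values were 0.338 and 0.435, 0.106, and 0.253 and 0.193. The annotated span of Agrp lies within Gm38250, a long non-coding RNA gene on the opposite strand with 189, 226, 65, 130 and 154 reads, so the Agrp counts are uncertain for that reason too.

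The receptors of these peptides were compared next, in edgeR's quasi-likelihood test over all 5 libraries with Benjamini-Hochberg adjustment over 19300 genes, where a gene was called at an adjusted p under 0.05. For 6-OHDA against sham, 18.8% of all genes tested were called higher and 17.1% lower. Of 9 receptor genes, Avpr1b and Avpr2 were not listed, and of the 7 tested 4 were called lower and none higher, with a median log2 fold change of -1.49 beside a median of -0.00245 over all genes. Hcrtr1, the receptor selective for orexin A, had 11.3 and 8.502 CPM in sham, 1.34 in 6-OHDA, and 6.38 and 5.24 in the NDST3 libraries. The groups did not overlap, and its log2 fold change was -2.89 (SE 0.33, adjusted p = 0.00842, edgeR). Hcrtr2, which binds both orexins, had 7.03 and 5.61 CPM in sham, 1.80 in 6-OHDA, and 4.62 and 3.02 in the NDST3 libraries, a log2 fold change of -1.81 (SE 0.39, adjusted p = 0.0240, edgeR). Mchr1, the receptor of melanin-concentrating hormone, had 7.80 and 10.4 CPM in sham and 3.25 in 6-OHDA, a change of -1.49 (SE 0.29, adjusted p = 0.0187, edgeR). Mc4r, a melanocortin receptor that the Agrp peptide blocks, had 1.98 and 2.55 CPM in sham and 0.716 in 6-OHDA, a change of -1.66 (SE 0.41, adjusted p = 0.0337, edgeR). In all 4 the 6-OHDA library was the lowest of the 5.

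The other 3 receptors did not pass the test. Mc3r, the second melanocortin receptor, had a log2 fold change of -1.40 (adjusted p = 0.0557, edgeR). Avpr1a, a vasopressin receptor, had one of -0.996 (adjusted p = 0.0866), and Oxtr, the oxytocin receptor, one of -0.24 (adjusted p = 0.648). Oxtr had 4.70 and 4.88 CPM in sham, 4.07 in 6-OHDA, and 2.75 and 4.59 in the NDST3 libraries, so its groups overlapped.

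**Figure D2:**
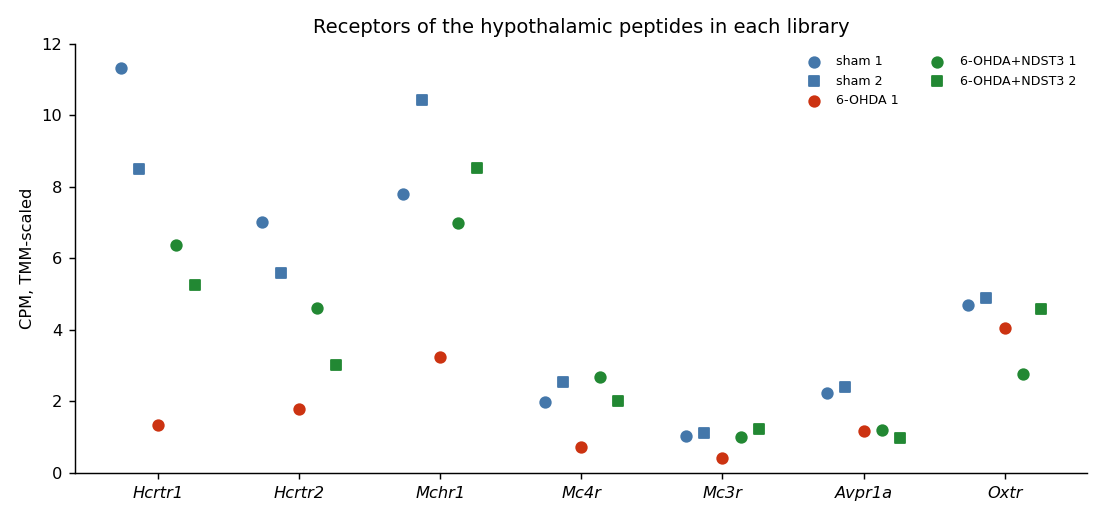
TMM-scaled CPM (linear axis from 0) of the 7 listed receptors of the peptides in each library, blue for sham, red for 6-OHDA, green for 6-OHDA+NDST3, circles for replicate 1 and squares for replicate 2. The red point is the lowest of the 5 for Hcrtr1 (1.34), Hcrtr2, Mchr1, Mc4r and Mc3r, and lies among the others for Avpr1a and Oxtr.

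For the NDST3-treated PD model against 6-OHDA, 9.06% of all genes were called higher and 6.59% lower, and 2 of the 7 receptors were called higher. Hcrtr1 had a log2 fold change of 2.12 (SE 0.32, adjusted p = 0.0336, edgeR) and Mchr1, with 7.004 and 8.53 CPM in the NDST3 libraries, one of 1.25 (SE 0.29, adjusted p = 0.0492, edgeR). The call of Mchr1 lay close to the threshold and was lost in most of the alternative settings tried, more often than that of Hcrtr1. Mc4r, at 2.67 and 2.01 CPM, missed the threshold with 1.70 (adjusted p = 0.0529). This contrast shares the 6-OHDA library with the preceding one, so the values do not stand as separate evidence. For NDST3-treated against sham, edgeR called 0% of all genes higher and 0% lower. At an unadjusted p under 0.05 it gave 2744 genes, and DESeq2 gave 1048 genes by adjusted p.

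Other peptide genes of the hypothalamus did not follow Hcrt and Pmch as a group. Of 25 such genes 16 were listed, and 2 were called higher and 4 lower in 6-OHDA than in sham, with 8 values above and 8 below 0 and a median of -0.03. These shares, 12.5% higher and 25% lower, stand beside 18.8% and 17.1% over all genes. Gal, the galanin precursor, rose from 3.69 and 1.93 CPM in sham to 25.2 in 6-OHDA (log2 fold change 3.17, SE 0.39, adjusted p = 0.00869, edgeR), and it stood at 9.39 and 7.62 CPM in the NDST3 libraries. Tac2, the neurokinin B precursor, rose by 2.29 on the log2 scale (SE 0.59, adjusted p = 0.0385). The sham and NDST3 libraries of Tac2 overlapped.

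Cartpt, the precursor of a peptide that many melanin-concentrating hormone neurons also make, was the peptide gene with the largest fall. It had 117.0 and 71.04 CPM in sham, 5.13 in 6-OHDA, and 65.3 and 39.3 in the NDST3 libraries, and its log2 fold change was -4.19 (SE 0.52, adjusted p = 0.00869, edgeR). The 6-OHDA library was lowest by a wide margin, while Pmch was highest there. In sham the TPM was 334.2 and 203.6 for Cartpt but 1.57 and 12.9 for Pmch. Which cells held either RNA was not tested. Tac1, the substance P precursor, Sst, encoding somatostatin, and Adcyap1, encoding PACAP, were called lower with changes of -1.71, -1.64 and -0.80. Crh, Trh and Pomc, precursors of the releasing hormones of the stress and thyroid axes and of the melanocortins, had values of 0.09, -0.59 and 0.04 and were not called (adjusted p = 0.863, 0.256 and 0.929, edgeR). They were named for their role after their values were seen. In NDST3-treated against 6-OHDA, 2 of the 16 were called higher, Cartpt at 3.35 (adjusted p = 0.0336, edgeR) and Tac1 at 1.95 (adjusted p = 0.0362, edgeR), and none lower. The share of 12.5% called higher stands beside 9.06% over all genes, of which 6.59% were called lower.

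Of 28 transcription factors of hypothalamic development, 21 were listed, and 2 were called higher and 3 lower in 6-OHDA than in sham (median -0.09). These shares, 9.52% and 14.3%, were no larger than the 18.8% and 17.1% over all genes. Lhx6 (2.98, adjusted p = 0.0349), which also marks cortical interneurons, and Nkx2-2 (0.69, adjusted p = 0.0223), also present in oligodendrocyte lineage cells, were the higher ones. Lhx1 (-2.44), Foxb1 (-2.13), a mammillary factor, and Arnt2 (-0.71), the partner of Sim1, were the lower ones. Sim1, which acts with Otp in the development of oxytocin and vasopressin neurons, had 2.23 and 1.71 CPM in sham, 1.16 in 6-OHDA, and 0.857 and 0.553 in the NDST3 libraries and was not called (-0.76, adjusted p = 0.241, edgeR). It was named for that role after its values were seen. The 6-OHDA value of Sim1 lay between the other groups, unlike that of Otp. In NDST3-treated against 6-OHDA only Lhx1 was called, at 1.66 (adjusted p = 0.0481, edgeR). That is 4.76% called higher, beside 9.06% over all genes. The call of Lhx1 lay close to the threshold and was lost in most of the alternative settings tried.

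Receptors of hormones and other peptides and the machinery that cuts and stores peptides were lower in the 6-OHDA library where they were called. Of 16 receptors 8 (50%) were called lower and none higher (median -1.42), where 17.1% of all genes were called lower and 18.8% higher. The largest changes were those of Ghsr, the ghrelin receptor, at -2.85 and Crhr1, a receptor of corticotropin-releasing hormone, at -2.06. Calcr, the calcitonin receptor, and Pgr, the progesterone receptor, followed at -1.80 and -1.66. Of 11 processing genes 7 (63.6%) were called lower and none higher (median -0.89). These included Chga (-2.01) and Chgb (-1.17), granins of dense-core vesicles, and the prohormone convertases Pcsk1 (-1.52) and Pcsk2 (-1.29). In NDST3-treated against 6-OHDA, 3 of the 16 receptors were called higher (among them Ghsr at 1.80 and Crhr1 at 1.42), as were 5 of the 11 processing genes, among them Chga at 1.53, Pcsk2 at 1.40, Chgb at 0.81 and Pcsk1 at 0.80. The shares called higher, 18.8% of the receptors and 45.5% of the processing genes, stand beside 9.06% over all genes. No gene of these lists was called lower in that contrast, where 6.59% of all genes were.

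**Figure D3:**
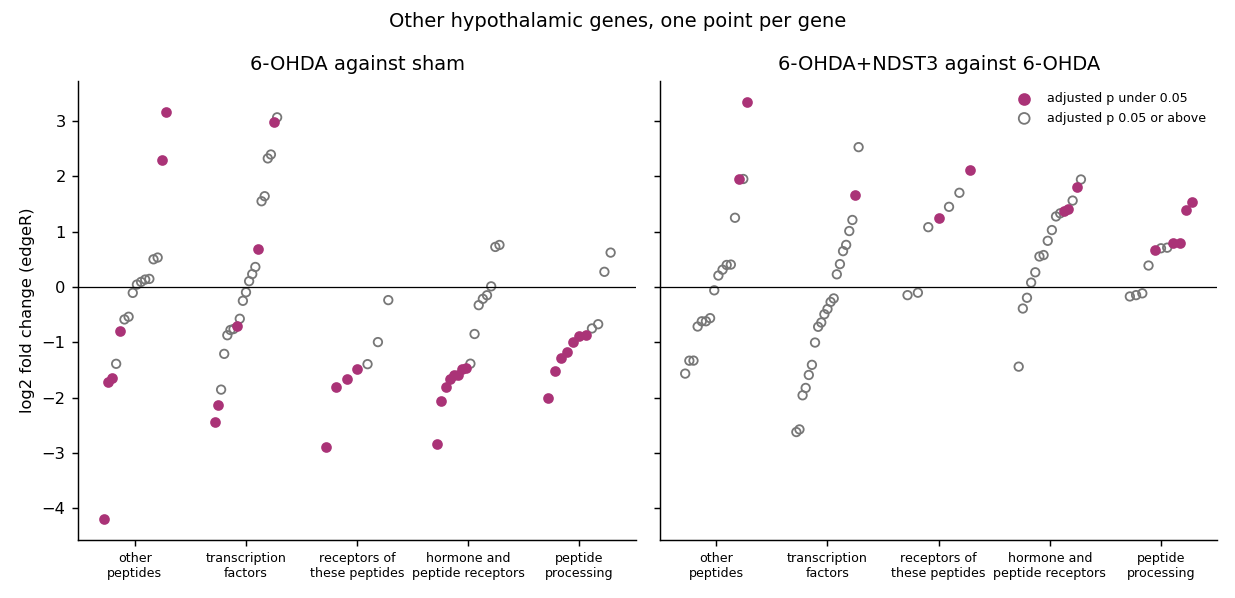
Log2 fold change from edgeR (vertical axis) of each tested gene of the 5 lists, 6-OHDA against sham on the left and 6-OHDA+NDST3 against 6-OHDA on the right, filled where the adjusted p was under 0.05. On the left the receptor and processing genes that were called lie below 0, while the peptides and transcription factors spread to both sides.

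Over the 5 lists, 71 of 89 genes were tested, of which 4 (5.63%) were called higher and 26 (36.6%) lower in 6-OHDA than in sham, where the shares over all genes were 18.8% and 17.1%. In NDST3-treated against 6-OHDA, 13 (18.3%) were called higher and 0 lower, where the shares over all genes were 9.06% and 6.59%. Of the 71 list genes, 33 had an unadjusted p under 0.05 in either direction. DESeq2 called 27 of the list genes there. In NDST3-treated against sham edgeR called 0, with 16 at an unadjusted p under 0.05, and DESeq2 called 7. Without sham 1 or without sham 2 edgeR called none of the list genes, nor any gene at all, for 6-OHDA against sham, so every call given for that contrast needs both sham libraries. In NDST3-treated against 6-OHDA it called 0 list genes without sham 1, without sham 2 or without NDST3 library 1, and 20 without NDST3 library 2.

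Markers of other cells and regions moved in the 6-OHDA library as well, and their part in the levels of the peptide genes was not tested. Their counts for 6-OHDA against sham stand beside 18.8% of all genes called higher and 17.1% called lower. Pan-neuronal markers were called lower in 8 of 8 (median -1.19), midbrain dopaminergic markers in 9 of 9 (median -4.32) and serotonergic markers in 5 of 5 (median -6.71), while microglia markers were called higher in 7 of 7 listed (median 2.87). Markers of cortex and hippocampus had values above 0 in 7 of 7, with 2 (28.6%) called higher. Their summed CPM was 40.7 and 36.7 in sham, 85.3 in 6-OHDA, and 35.4 and 66.1 in the NDST3 libraries. Thalamus markers summed to 281.3 and 345.1 CPM in sham, 576.8 in 6-OHDA, and 274.0 and 773.7 in the NDST3 libraries, with none of 6 called. Prkcd weighed heavily in this sum, with 69.9 and 42.0 CPM in sham, 266.7 in 6-OHDA, and 22.7 and 309.9 in the NDST3 libraries. For 6-OHDA against sham 5 thalamus markers had values above 0 and 1, Tcf7l2, lay below (-0.72). The mammillary and subthalamic markers went down in the 6-OHDA library, with 2 of 3 called lower. Of the striatum markers 1 of 6 (16.7%) was called lower, a share near that over all genes. None of the 4 listed tanycyte markers, the 2 listed of 9 pituitary markers or the 1 listed of 8 hindbrain Hox genes was called. Rax, a defining gene of tanycytes, and Gh and Prl, the most abundant pituitary hormone genes, were not listed. The 6 hypothalamic genes summed to 15.4 and 12.8 CPM in sham, 170.8 in 6-OHDA, and 8.88 and 8.34 in the NDST3 libraries. A few genes carry such sums. In 6-OHDA, Pmch (100.4) and Hcrt (58.6) made up most of it, whereas in sham 1 most was Otp (14.2), and in the list of other peptides Cartpt fell from 117.0 of 368.6 CPM in sham 1 to 5.13 of 188.8 in 6-OHDA.

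**Figure D4:**
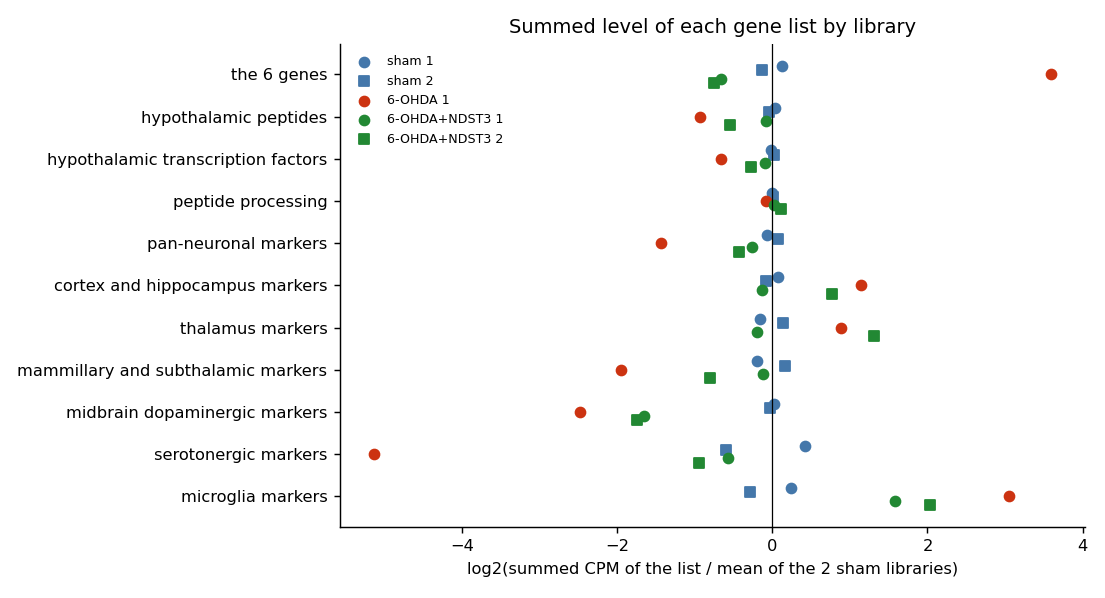
Log2 of the summed CPM of each gene list over the mean of the 2 sham libraries (horizontal axis), one point per library, with colours by group and circles for replicate 1 and squares for replicate 2. The 6-OHDA point of the 6 genes lies at 3.6, led by Pmch and Hcrt, and that of the other hypothalamic peptides, a sum in which Cartpt weighs heavily, lies below 0.

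In the single-cell table, which gives for 9 clusters the mean over cells of a natural log value in the 6-OHDA and NDST3 libraries, the peptide genes were close to 0. Hcrt was above 0 in 3 of 18 values, with a highest of 0.00978 in cluster 5 of the 6-OHDA library. Pmch was above 0 in 3 of 18 with a highest of 0.000378, Avp in 2, Otp in 1 and Oxt in 8, the last with a highest of 0.0120. Agrp was above 0 in 18 of 18, between 0.00300 and 0.0758. No value of the 6 genes exceeded 0.1, and the median over the 8 pan-neuronal markers was at most 0.0452 in any cluster and library, although Map2 reached 0.554 in cluster 2. With 1 library per group no comparison was tested.

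In the chromatin tables, Avp was the only one of the 6 genes with a listed region. Its region of 140 bases in ATAC-seq, which measures open chromatin, lay 6 bases from the start site by the table's own annotation and had a signal of 108.3 in sham, 161.2 in 6-OHDA and 139.7 in the NDST3-treated model, where each group is 1 library. The ratio of 6-OHDA to sham was 1.49, where the median over 3582 regions was 1.08 and 19.3% of regions had a higher ratio. The ratio of NDST3-treated to 6-OHDA was 0.866, where the median was 1.08. Among 11424 regions of H3K27ac, a mark of active promoters and enhancers measured by CUT&RUN, none was annotated to any of the 6 genes. Regions of their receptors were listed. At Mchr1 the H3K27ac signal was 9.88 in sham, 13.2 in 6-OHDA and 25.6 in the NDST3-treated PD model. At Hcrtr2 it was 8.54, 20.9 and 20.9, with 1 value given for each group of 2 libraries. The sham signals were low, since 74.0% of H3K27ac regions had a higher one than Mchr1 and 79.8% than Hcrtr2. The ratios of 6-OHDA to sham were 1.33 at Mchr1 and 2.45 at Hcrtr2 beside a median of 1.10 over all H3K27ac regions, and those of NDST3-treated to 6-OHDA were 1.94 and 1.0 beside a median of 1.33. The vasopressin receptor gene Avpr1b had 2 ATAC-seq regions, with ratios of 6-OHDA to sham of 1.94 and 1.88 and of NDST3-treated to 6-OHDA of 1.08 and 0.794.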

How the data were processed

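RNA-seq of mouse brain was read from the deposited table. The authors trimmed the reads, aligned them with HISAT2 to mm10 and quantified them with StringTie, and they deposited a read count and a TPM per gene. Every listed gene had at least 1 read in each library. Total counts ranged from 51003699 to 70533326 per library. Counts were filtered with filterByExpr, which left 19300 of 20328 genes, and fitted with edgeR 4.0.16 (R 4.3.3, TMM factors, quasi-likelihood test) over all 5 libraries. The single 6-OHDA library was assumed to vary like the other groups. The p-values measure the spread between these libraries, which may be technical. The 6 genes and the gene lists were chosen with earlier results of these data known, and the 6 genes were not tested.

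In each list, up to 4 genes called in each direction were named by size of change, with all receptors of the peptides and the 3 genes nearest in profile to each of the 6 (mean CPM of at least 1). A result that this rule names is not reported here. The deposited scRNA-seq values follow a natural log of 1 plus the scaled count, averaged over cells by the authors, and the sham library is not analysed here. The deposited ATAC-seq and CUT&RUN signal is normalized in a way not given in the sources used here. The positions in those tables did not match GRCm38, so only the distances in the authors' annotation were used. DESeq2 1.42.0 and limma 3.58.1 were alternatives. The fit was tested on simulated data. Calculations outside R used Python 3.11.15.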

Additional observations from a re-analysis of the deposited data

How the results depend on the processing

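For 6-OHDA against sham, 30 genes of the 5 hypothalamic lists were called. This count was 11 with the replicate block and 0 to 37 with 1 replicate left out in turn, the 0 without either sham library. For NDST3-treated against 6-OHDA, 13 were called. The count was 23 with a fold of 2 and an unadjusted p under 0.05, 27 with DESeq2, 20 with limma on log2(TPM + 0.1), 0 with the replicate block, 0 with only the 2 groups compared, and 0 to 20 with 1 replicate left out. For NDST3-treated against sham, 0 were called, against 5 with the fold rule and 7 with DESeq2, and 0 with each replicate left out. Over all genes, the replicate block gave 1796 calls for 6-OHDA against sham, where 6916 were called without it, and 0 for NDST3-treated against 6-OHDA, where 3019 were called. DESeq2 gave 5232 in the latter.

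The deviations of same-numbered sham and NDST3 libraries from their group means had a correlation of -0.42. With 2 libraries per group its sign depends on the numbering, so it cannot show whether libraries were paired. With the numbers crossed in the replicate block, a choice made after seeing the data, 27 list genes were called for NDST3-treated against 6-OHDA and 5 for NDST3-treated against sham.

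For the 6 genes, 87 values of the log2 ratio of mean CPM moved by less than the spread between replicates, 12 moved by more and 3 changed sign. This spread differs by gene, so the tally does not measure stability. Oxt in NDST3-treated against 6-OHDA counted as moved at -1.796 with RLE scaling factors beside -1.782, because its NDST3 libraries were nearly equal. Where a replicate was left out, the shift itself follows from the gap between the replicates. The sign changes were in NDST3-treated against sham, for Hcrt without sham 2 (0.066) or without NDST3 library 2 (0.052) and for Pmch without sham 2 (1.57, the range over the left-out replicates being -1.46 to 1.57). Without NDST3 library 1, Hcrt had -10.77 against 6-OHDA and -4.41 against sham. Using TPM in place of CPM was also added after seeing the data. The region alternative, within 10 kb of the start site, was not run, because no annotation matched the positions. The cause of these differences was not tested. Of the log2 fold changes of named list genes, 323 kept their side of the threshold and 132 lost it, none with a change of direction. Depth limits Agrp (2 to 10 reads) and Hcrt in NDST3 library 2.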
